A study of Mus musculus with 5 samples.

Results

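The last interval of a lipopolysaccharide (LPS) time course in mouse bone marrow-derived macrophages, from 12 to 24 h, is described here by comparing the transcript levels of the 24 h library with those of the 12 h library. These were 2 of the 5 libraries of the series, which were taken at 0, 4, 8, 12 and 24 h with 1 library at each time. The table listed 13339 genes, of which 9795 whose FPKM averaged 1 or more over the 5 libraries were compared, and 3544 lay below that mean. FPKM counts the sequenced fragments of a gene relative to the length of its transcript and to the size of the library. The macrophages were grown from marrow of C57BL/6 mice aged 8 weeks, over 5 days in DMEM with the growth factor M-CSF, and then received LPS at 100 ng/ml for 4, 8, 12 or 24 h. The 0 h library came from macrophages of the same kind before LPS. All 5 titles carry the tag WT2, which the labels do not explain, and 1 protocol field calls the extracted cells mDCs although the source is given as macrophages. The samples include no macrophages kept for 12 or 24 h without LPS, and the effect of LPS and that of longer culture cannot be told apart. The labels do not give how many animals or cultures went into a library. With 1 library a side no test was possible, and every difference compares these 2 libraries.

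LPS is a component of the bacterial outer membrane that macrophages sense through the receptor TLR4, which signals to NF-kappaB, to MAP kinases and, from endosomes, to interferon genes. The early transcripts include cytokines, chemokines and the inhibitors that later limit the pathway, while many genes of the resting macrophage, among them lysosomal and lipid-handling genes, lose transcript. In the later hours of a response, factors such as NRF2, which senses oxidized thiols, are known to drive genes for glutathione, heme breakdown and iron storage.

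Between 12 and 24 h the transcripts that were lower included 13 of 18 inflammatory cytokines, 10 of 18 chemokines and 6 of 25 genes of cholesterol synthesis, and those that were higher included 5 of 27 antioxidant and 4 of 19 iron-handling genes. Differences are given on the log2(FPKM + 1) scale as 24 h minus 12 h, after subtracting the difference of the median gene, and are called log2 differences. The median gene stood 0.22 higher at 24 h before this centring. A gene was counted as higher or lower from a log2 difference of 1 (2-fold). By this rule 148 genes were higher at 24 h (1.51% of 9795), 555 were lower (5.67%) and 9092 lay within 2-fold, so that 21.1% of the genes past the threshold were higher. This split depended on the scaling: without centring 335 genes were higher and 343 lower (49.4% higher), and with libraries scaled to the same 75th percentile 260 were higher and 388 lower (40.1% higher). Without centring every log2 difference is 0.22 higher, so that values between -0.22 and 0 change sign. These include the medians of the lists of arginine, complement, glycolysis, hypoxia, TCA cycle, fatty acid oxidation, lipid uptake, lysosomal, integrated stress response and macrophage transcription factor genes. Folds given for single genes are ratios of the FPKM as deposited. Where a gene is given 5 levels, they are its FPKM in the libraries of 0, 4, 8, 12 and 24 h, in this order.

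**Figure D1:**
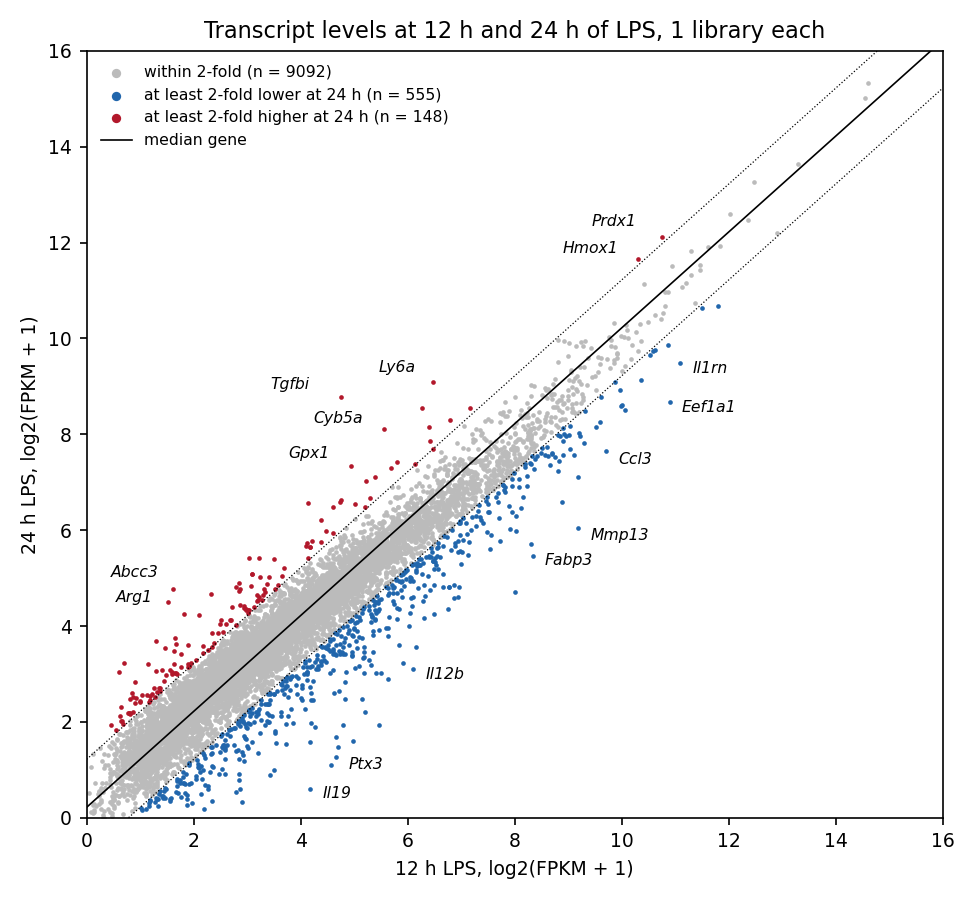
Level of each of the 9795 genes in the 12 h library (x axis) and the 24 h library (y axis), both as log2(FPKM + 1). The solid line is the median gene, 0.22 above equal levels, and the dotted lines lie 1 above and below it; the 555 blue points under the band outnumber the 148 red points over it.

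The 12 h and 24 h libraries ranked genes alike, with Spearman's rho of 0.952 across the 9795 genes, which are not independent of each other. The 8 h and 12 h libraries gave 0.974, and by the same threshold 158 genes were higher (1.61%) and 135 lower (1.38%) at 12 h than at 8 h, over a shorter interval that shares the 12 h library. Steps between low FPKM values placed the depth of all libraries at an estimated 18.8 to 19.2 M reads (M, megareads), so the 2 sides were of like depth. At that depth the median gene of the 148 higher genes had an estimated 266 reads at 12 h and 854 at 24 h, and the median of the 555 lower genes 1396 and 521. Abundant genes carried more of the lower calls. The 980 genes of highest mean level (at least 75.6 FPKM) had a median log2 difference of -0.45, with 17 higher and 151 lower, while the medians of the other groups of about that size, ordered by level, lay between -0.19 and 0.13. The 10 most abundant genes of each library held 19.3% of the summed FPKM at 12 h and 25.8% at 24 h. Saa3 alone, which encodes an acute-phase serum amyloid A protein, held 5.21% and 8.42%. What part this shift has in the lower values of other abundant genes was not tested.

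Most genes past the threshold had been displaced the opposite way earlier in the response. Of the 148 genes higher at 24 h, 105 (70.9%) had been at least 2-fold under their 0 h level at 8 h, against 14.9% of all 9795 genes, and 8 had been at least 2-fold over it. Of the 555 genes lower at 24 h, 404 (72.8%) had been at least 2-fold over their 0 h level at 8 h, against 18% of all genes, and 31 had been at least 2-fold under it. The comparison of 8 h with 0 h shares no library with that of 24 h with 12 h. Across all 9795 genes the 2 differences had a Spearman's rho of -0.46, given as a description. The median of the 148 higher genes relative to 0 h went from -1.75 (8 h) over -1.46 (12 h) to -0.16 (24 h). That of the 555 lower genes was 2.11, 1.83 and 0.43. At 24 h, 77 of the 148 and 242 of the 555 lay within 2-fold of their 0 h level, against 7362 of all 9795 genes. Of the higher genes 36 were at least 2-fold above 0 h and 35 at least 2-fold below it. Of the lower genes 114 were at least 2-fold below 0 h and 199 at least 2-fold above it. Among all 9795 genes 12.6% were at least 2-fold above 0 h at 24 h and 12.3% at least 2-fold below it.

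**Figure D2:**
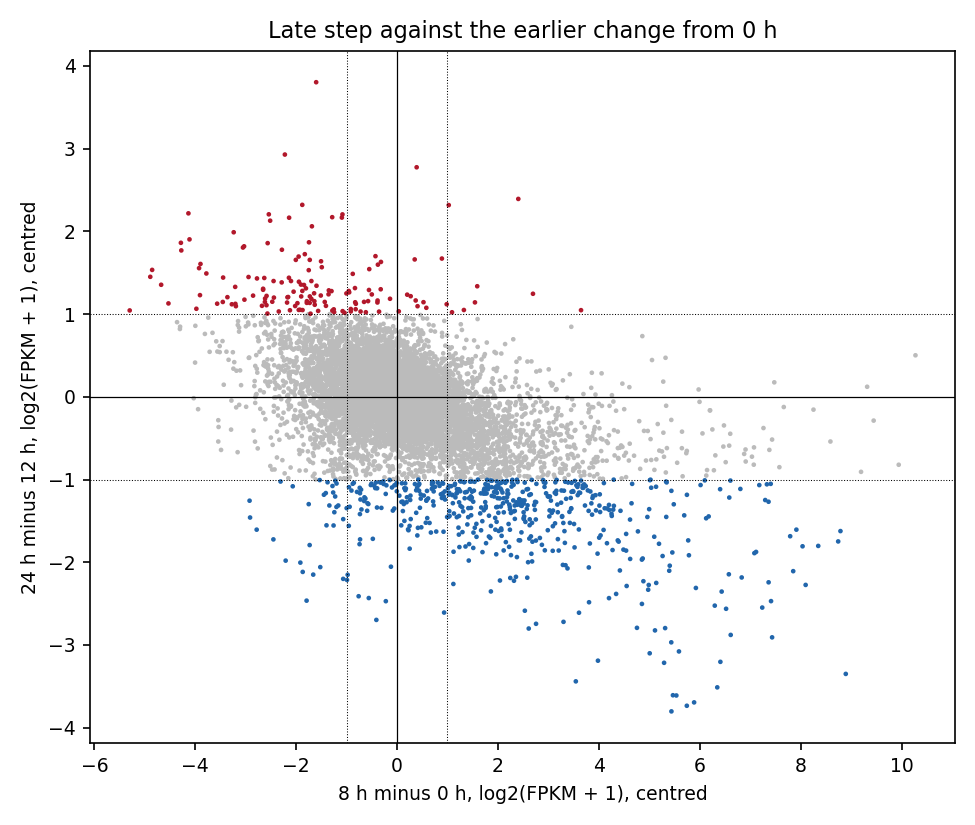
Log2 difference of each of the 9795 genes from 0 to 8 h (x axis) and from 12 to 24 h (y axis), both as log2(FPKM + 1) centred on the median gene, with dotted lines at 1 and -1. Red points (148 genes higher at 24 h) lie mostly on the left, where 105 are past the dotted line, and blue points (555 genes lower at 24 h) mostly on the right, where 404 are.

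Transcripts of inflammatory cytokines were lower at 24 h in most of the list and higher in none of it by the 2-fold rule. Of 18 measured cytokine genes 13 were lower and 0 higher, with a median log2 difference of -1.61, where 5.67% of all genes were lower and the median is 0 by construction. Il19, a cytokine of the interleukin 10 family, had the lowest difference of the genes of at least 10 FPKM. It stood at 0, 15.6, 29.96, 17.1 and 0.51 FPKM, a log2 difference of -3.80. Counting error alone gave 95% intervals of 15.4 to 19 FPKM (12 h) and 0.251 to 0.922 FPKM (24 h), which do not overlap. Il12b encodes the p40 chain shared by interleukins 12 and 23, and it stood at 0.62, 376, 97.3, 67.2 and 7.62 FPKM (8.82-fold lower than at 12 h). Il6, whose product drives the acute-phase response, stood at 0.10, 247, 71.2, 27.5 and 4.61 FPKM. Both of these peaked at 4 h and had already lost most of their transcript by 12 h. Csf3, which encodes the growth factor of neutrophils G-CSF, peaked later and stood at 0.04, 5.47, 28.1, 35.7 and 3.60 FPKM. Tnfsf15, a ligand of the TNF superfamily, stood at 0.69, 144, 57.02, 26.6 and 2.80 FPKM. In all 5 of these genes the 24 h level was the lowest since LPS was given, yet above that at 0 h, where Il19 was listed at 0.

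Other cytokines were lower from higher levels or did not follow the list. Tnf and Il1b, the best-known products of the LPS response, lie outside the rule for named genes and were chosen after their values were seen. Tnf stood at 379 FPKM (12 h) and 189 FPKM (24 h), a log2 difference of -1.22, and Il1b at 1031 FPKM (12 h) and 389 FPKM (24 h), a difference of -1.62. The exceptions were few. Il15, which supports lymphocytes, was at 66.9 FPKM (12 h) and 71.04 FPKM (24 h), and Cxcl16, a membrane-bound chemokine, at 116 FPKM (12 h) and 141 FPKM (24 h). Ifnb1, the gene of interferon beta, stood at 0, 7.87, 0.85, 0.22 and 1.29 FPKM, a log2 difference of 0.69 from levels near 1 FPKM.

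The log2 differences of the chemokines ran from -2.80 to 0.12. Of 18 measured, 10 were lower and 0 higher (median log2 difference -1.16). Ccl9 stood at 128, 719, 563, 314 and 51.7 FPKM and was 6.08-fold lower at 24 h than at 12 h. Ccl3, an attractant of monocytes, stood at 72.8, 5651, 1671, 833 and 199.8 FPKM. Ccl9 thus ended under its 0 h level and Ccl3 above it. Reads of Ccl3 may be divided with any similar family members, so its level carries that uncertainty. Cxcl2, which attracts neutrophils, stood at 2.11, 608, 211, 185 and 47.8 FPKM, and Ccl22, a ligand of CCR4, at 0.71, 36.1, 34.7, 17.2 and 4.46 FPKM. Ccl6 was highest before LPS and lower at every later time, with 172, 80.8, 57.8, 37.9 and 8.86 FPKM. By contrast Ccl5, an attractant of T cells and monocytes, stood at 21.99, 4730.1, 10475, 10084 and 12779 FPKM, a log2 difference of 0.12. Ccl2, the main attractant of monocytes, stood at 4.25, 400.5, 235, 365 and 452 FPKM, a difference of 0.09. Both lay close to the median gene over the interval and remained far above their 0 h levels.

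Part of the inhibitors of TLR signalling were lower. Of 23 measured negative regulators 9 were lower and 0 higher (median -0.85), and 22 lay below the median gene. Il1rn, the interleukin 1 receptor antagonist, stood at 12.7, 893, 2573, 2170.4 and 722 FPKM, a log2 difference of -1.81. Tnfaip3 encodes A20, which edits ubiquitin chains to stop NF-kappaB signalling, and stood at 6.94, 548, 309, 178 and 61.7 FPKM. Il10, the anti-inflammatory cytokine, stood at 1.75, 139.8, 35.2, 20.6 and 8.73 FPKM. All 3 had their 24 h level below the 12 h level and above the 0 h level. Dusp1, a phosphatase of MAP kinases, was at 99.02 FPKM (12 h) and 107 FPKM (24 h), a log2 difference of -0.11, and Nfkbie, an inhibitor of NF-kappaB, at 42.8 FPKM (12 h) and 45.7 FPKM (24 h) (-0.13). The 1 gene above the median gene was Dusp4, another such phosphatase, at 5.97 FPKM (12 h) and 8.59 FPKM (24 h) (0.24). Relative to 0 h, 22 of the 23 genes were still at least 2-fold higher at 24 h, against 12.6% of all genes.

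Promoter sequences of genes in these groups and of antioxidant genes were searched, since NF-kappaB is a main factor of TLR signalling and the antioxidant response element (TGACNNNGC) is the motif of NRF2. Promoters of 250 bases before the start were taken from RefSeq (GRCm38.p6), and matched 8001 of the 9795 genes, 115 of the 148 higher and 431 of the 555 lower. On either strand, 9.98% of the promoters of lower genes held the NF-kappaB motif, 6.09% of those of higher genes and 5.51% of all. The antioxidant response element was found in 13.9% of the promoters of higher genes, 11.4% of those of lower genes and 14.2% of all, so the share in higher genes was near the background. AP-1 (TGANTCA) was found in 9.57% of the higher, 9.74% of the lower and 5.54% of all. The interferon-stimulated response element was found in 4.35%, 6.03% and 3.66% of them in the same order. For the amino acid response element (TGATGNAA) these shares were 1.74%, 4.41% and 2.4%, and for the E-box (CACGTG) 4.35%, 9.98% and 10.5%. A match is a string of letters and not a measured site. The stretches shown are 100 bases around the match in 3 genes that were lower and in 2 antioxidant genes that were higher, 5′ to 3′ on the gene's strand, with the match in capitals. Il6 (chr5:30013014-30013113, plus strand), Cxcl2 (chr5:90903757-90903856, plus strand) and Tnfaip3 (chr10:19015481-19015580, minus strand) show the NF-kappaB motif, of which Tnfaip3 had 2 matches in 250 bases and 1 is shown. Gclm (chr3:122245377-122245476, plus strand) and Prdx1 (chr4:116685420-116685519, plus strand) show the antioxidant response element as its reverse complement. The Prdx1 match also contains the AP-1 letters TGAGTCA.
Il6: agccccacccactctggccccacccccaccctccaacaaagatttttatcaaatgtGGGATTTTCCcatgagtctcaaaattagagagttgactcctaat
Cxcl2: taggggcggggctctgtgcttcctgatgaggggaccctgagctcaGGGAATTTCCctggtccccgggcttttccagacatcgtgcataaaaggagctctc
Tnfaip3: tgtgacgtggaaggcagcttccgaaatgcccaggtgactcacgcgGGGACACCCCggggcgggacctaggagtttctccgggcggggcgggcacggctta
Gclm: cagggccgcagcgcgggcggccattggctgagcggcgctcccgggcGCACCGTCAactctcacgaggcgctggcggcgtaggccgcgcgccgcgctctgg
Prdx1: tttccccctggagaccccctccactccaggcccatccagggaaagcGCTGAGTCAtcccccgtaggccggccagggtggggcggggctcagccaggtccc

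In these stretches the match ends 35 bases before the start in Il6, 88 in Cxcl2, 116 in Tnfaip3, 126 in Gclm and 125 in Prdx1. The transcripts of the first 3 were lower at 24 h (log2 differences -2.56, -2.15 and -1.74) and those of Gclm and Prdx1 higher (1.49 and 1.14).

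Receptors of the pathway did not move as 1 group. Of 21 measured Toll-like receptors and adaptors 3 were higher and 3 lower (median 0.12). Tlr4, the LPS receptor, stood at 19.1, 6.01, 4.04, 5.05 and 15.5 FPKM, a log2 difference of 1.22. Tlr13, which senses bacterial ribosomal RNA, stood at 101, 14.3, 17.2, 25.9 and 97.7 FPKM, and Cd180, a TLR4 homologue that modulates LPS signalling, at 96.7, 153, 83.1, 84.5 and 230.4 FPKM. Tlr4 and Tlr13 had dropped by 4 h and stood near their 0 h levels at 24 h. Tlr2, the receptor of bacterial lipopeptides, moved the other way with 33.8, 198, 73.02, 65.4 and 22.9 FPKM. Cd14, which hands LPS to TLR4, stood at 170.5, 931, 444, 523 and 206 FPKM, and the kinase gene Irak2 at 79.6 FPKM (12 h) and 42.4 FPKM (24 h). Tlr2 and Cd14 were induced by 4 h and stood near their 0 h levels at 24 h.

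Interferon-stimulated genes changed little beside the cytokines. Of 35 measured, 2 were lower and 0 higher, but all 35 lay below the median gene (median -0.48), a value close to the median of -0.45 of the 980 most abundant genes. All 35 were still at least 2-fold above 0 h at 24 h, against 12.6% of all genes. Isg15, a ubiquitin-like modifier, stood at 17.2, 1051, 1886, 1565 and 869.6 FPKM, a log2 difference of -1.07. Bst2, the antiviral tetherin, stood at 164, 291, 831, 1079 and 1249 FPKM, a difference of -0.01 that turned positive without centring. The interferon gamma-type GTPases, which attack vacuoles of intracellular microbes, were lower in 6 of 15 with a median of -0.88. Gbp5 stood at 1.87, 1113, 877, 548 and 189 FPKM, and Gbp2 at 9.22, 778, 1201, 1003 and 484 FPKM. Reads of Gbp genes may be divided among near-identical copies.

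Some genes of antigen presentation and costimulation were lower, class II more widely than class I. Of 16 measured class II and costimulation genes 10 were lower and 0 higher (median -1.19). Cd40, the receptor through which T cells activate antigen-presenting cells, stood at 2.37, 749.9, 659, 261 and 62.1 FPKM. H2-Ab1, a class II chain, stood at 211, 134, 199, 209 and 75.4 FPKM, and Cd74, the invariant chain, at 856, 617, 814, 735 and 285 FPKM. Cd86, a costimulatory ligand, stood at 7.26, 40.4, 45.8, 34.6 and 12.5 FPKM. Cd40 and Cd86 ended above their 0 h levels, and H2-Ab1 and Cd74 below theirs. Cd274, which encodes the inhibitory ligand PD-L1, was at 469 FPKM (12 h) and 445 FPKM (24 h). In the class I list 6 of 18 genes were lower and 0 higher. The median of the list was -0.57, where the 980 most abundant genes had a median of -0.45. Among the 6 lower genes, 5 encode parts of the immunoproteasome or the peptide transporter. They were Psme2 (-1.56), Psmb10 (-1.52), Psmb8 (-1.25), Tap2 (-1.17) and Psme1 (-1.08). H2-K1, a class I heavy chain, stood at 1790.0 FPKM (12 h) and 2015 FPKM (24 h). Reads of H2 genes may be divided among copies.

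**Figure D3:**
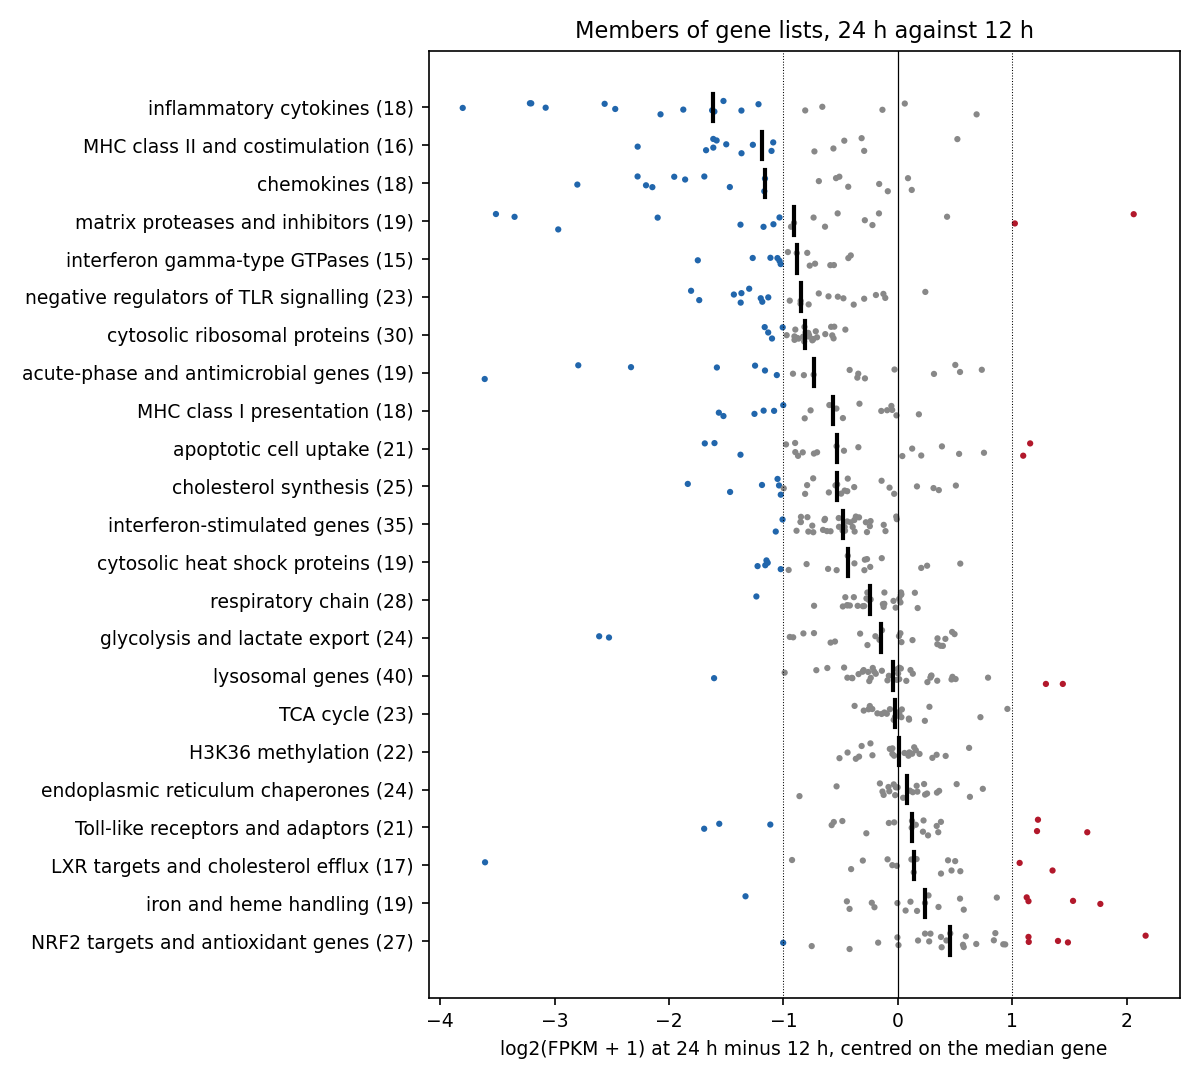
Log2 difference (24 h minus 12 h, centred on the median gene, x axis) of each measured member of 23 gene lists, with the number of members in brackets and a black bar at the list's median. Red and blue points are at least 2-fold higher and lower; medians run from -1.61 for cytokines to 0.46 for NRF2 targets and antioxidant genes.

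Secreted proteases and their inhibitors held some of the largest differences in both directions. Of 19 measured, 8 were lower and 2 higher (median -0.91). Mmp13, collagenase 3, stood at 3.08, 1473, 1385, 578 and 65.1 FPKM and was 8.88-fold lower at 24 h. Serpinb2, a serine protease inhibitor, stood at 0.73, 47, 52.5, 48.7 and 6.40 FPKM. Both were induced by 4 h. Adam8, a membrane metalloprotease, stood at 127, 63.9, 27.3, 75.7 and 372 FPKM, a log2 difference of 2.06, above every earlier level. Mmp8, neutrophil collagenase, stood at 13, 5.83, 5.51, 5.90 and 15.3 FPKM, a difference of 1.02.

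Acute-phase and antimicrobial genes were lower in 7 of 19 and higher in 0 (median -0.74), while the summed FPKM of the list was 34325 at 12 h and 49035 at 24 h, most of it Saa3. Saa3 itself stood at 18.7, 2036, 17416, 24852 and 40998 FPKM, a log2 difference of 0.50, and was the most abundant transcript of the list. Ptx3, a soluble pattern recognition protein, stood at 0.87, 17.5, 60.95, 24.4 and 1.42 FPKM and was 17.2-fold lower. Steap4, a metalloreductase, stood at 0, 19.4, 18.3, 6.44 and 0.25 FPKM. Marco, a scavenger receptor for bacteria, stood at 1.57, 9.97, 52.3, 82.4 and 161 FPKM, and Slc11a1, the phagosomal metal transporter NRAMP1, at 226, 122, 130.4, 256 and 435 FPKM. These 2 lay under the 2-fold threshold, and their highest FPKM was at 24 h.

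The gene with the highest log2 difference of those of at least 10 FPKM was Tgfbi, an extracellular matrix protein induced by TGF-beta (chromosome 13, 56609586 to 56639359, GRCm38). It stood at 36.7, 7.04, 7.86, 25.9 and 437 FPKM, which is 16.9-fold higher than at 12 h and a log2 difference of 3.80. Abcc3, an exporter of organic anions, stood at 27.9, 11.3, 3.42, 2.07 and 26.2 FPKM, with its lowest value at 12 h and a 24 h level near that at 0 h. Arg1 (chromosome 10, 24915207 to 24927470), the arginase of alternatively activated macrophages, stood at 0.22, 0.04, 0.14, 1.86 and 21.8 FPKM. Its counting intervals were 1.38 to 2.45 FPKM (12 h) and 20.1 to 23.6 FPKM (24 h). Ly6a, the surface antigen Sca-1, stood at 8.39, 12.9, 34.5, 87.6 and 541 FPKM, with the highest level at the latest time. Reads of Ly6a may be divided with other Ly6 genes. Cyb5a, cytochrome b5, stood at 153, 55.9, 28.98, 46.1 and 273 FPKM, and Rnf128, a membrane ubiquitin ligase, at 111, 34.03, 12.7, 16.6 and 93.4 FPKM. Tsc22d3, known as GILZ and induced by glucocorticoids, stood at 49.9, 1.54, 1.10, 3.30 and 17.7 FPKM. Cyb5a, Rnf128 and Tsc22d3 had dropped by 8 h, and at 24 h Cyb5a was above, Rnf128 near and Tsc22d3 below the 0 h level (log2 differences from 0 h of 0.94, -0.14 and -1.34). The other genes among the 15 highest were the organic cation transporter gene Slc22a4 (2.21), the prostaglandin reductase gene Ptgr1 (2.17), Adssl1 (2.13), the sugar phosphate transporter gene Slc37a2 (1.99) and Tmem8 (1.87).

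**Figure D4:**
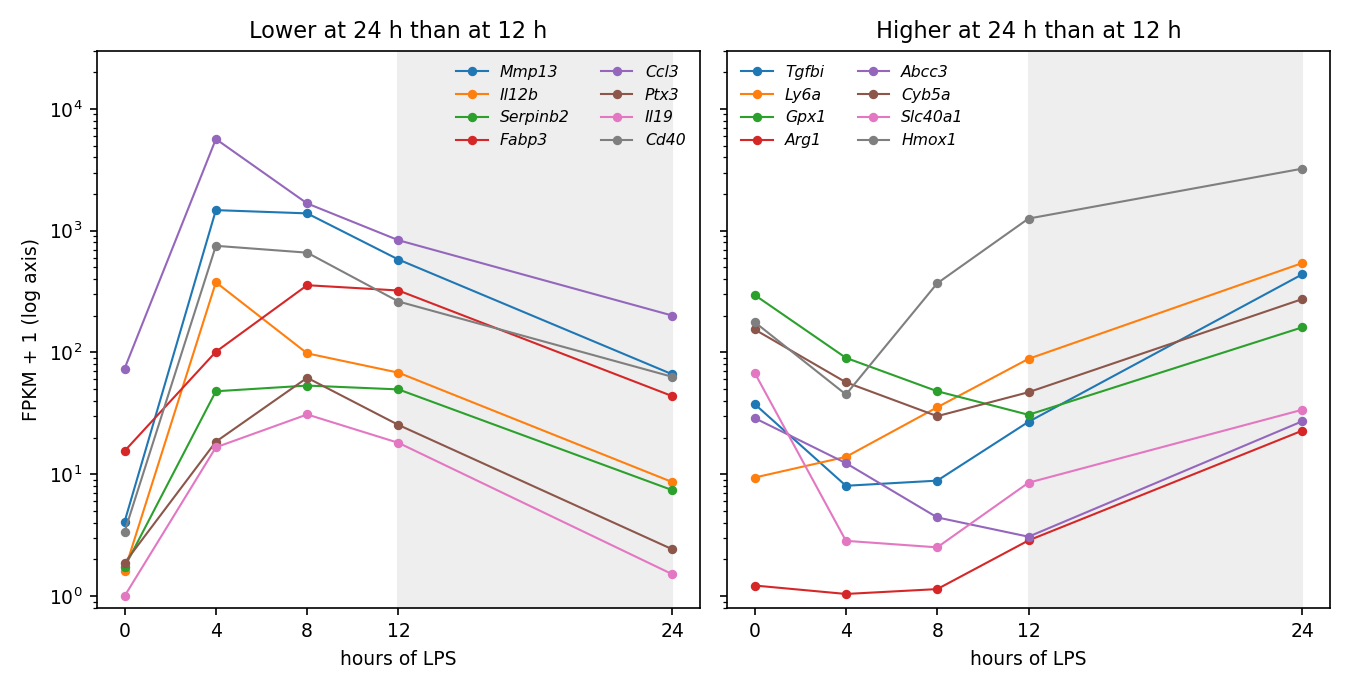
FPKM + 1 on a log axis over hours of LPS (x axis) for 8 genes lower (left) and 8 genes higher (right) at 24 h than at 12 h, 1 library per point, with the interval from 12 to 24 h shaded. On the left all genes are above their 0 h level by 4 h. On the right all genes but Ly6a are lower at 4 h than at 0 h. Tgfbi, Ly6a, Arg1, Cyb5a and Hmox1 reach their highest level at 24 h.

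Among the 15 lowest genes were several outside the lists of cytokines and proteases. Hdc, the enzyme that makes histamine, stood at 0.55, 26.9, 58.3, 43.03 and 2.85 FPKM and was 15.1-fold lower. Ch25h, which makes 25-hydroxycholesterol, stood at 0, 22.04, 30.6, 30.6 and 2.02 FPKM. Edn1, the gene of the vasoconstrictor endothelin 1, stood at 0.15, 342, 141, 59.3 and 8.36 FPKM. Each had been at most 0.55 FPKM before LPS, and each was above that level at 24 h. Shisa3 also belonged to this group (-3.69), as did Psat1, Dgat2 and Fabp3, which are given with their pathways. Of the abundant genes, Slc2a6, a member of the glucose transporter family, stood at 9.66, 383, 598, 474 and 95.1 FPKM, and Marcksl1, a substrate of protein kinase C that binds actin, at 27.7, 1242, 1244, 583 and 136 FPKM.

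Arginine metabolism showed opposite values for its enzymes. Of 15 measured genes 1 was higher and 4 were lower (median -0.19). Nos2, the inducible nitric oxide synthase, stood at 0.32, 291, 927, 1155 and 761 FPKM, a log2 difference of -0.82, and at 24 h was still far above Arg1, which competes for the same substrate, on the FPKM scale. Arg2, the mitochondrial arginase, stood at 0.84, 5.01, 26.2, 32.4 and 10.7 FPKM. Slc7a2, the importer of arginine, stood at 0.91, 67.3, 154, 211 and 53.4 FPKM. Odc1, the first enzyme of polyamine synthesis, was at 21.2 FPKM (12 h) and 10.7 FPKM (24 h), and Gch1, which makes the cofactor of Nos2, at 54.1 FPKM (12 h) and 30.8 FPKM (24 h). Arg1 alone among the 15 was at least 2-fold higher. No other marker of alternative activation passed the threshold with it: of 17 measured, Arg1 included, 1 was higher and 5 were lower (median -0.51). Igf1 (0.37) and Cd200r1 (0.03) also lay above the median gene. Mrc1, which encodes a mannose receptor, had levels of 45.5, 34.4, 15.8, 6.21 and 0.89 FPKM, and Chil3, a chitinase-like protein, had 30.8, 29.7, 20.9, 12.99 and 5.39 FPKM.

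In the prostaglandin and leukotriene list 3 of 16 genes were higher and 3 lower (median -0.28). The inducible enzymes of prostaglandin E2 synthesis were lower. Ptgs2, cyclooxygenase 2, stood at 0.55, 658, 359.7, 248 and 81.98 FPKM, and Ptges, the terminal synthase, at 1.27, 52.5, 390.2, 453 and 173 FPKM. Ptger2, a receptor of that prostaglandin, stood at 4.02, 0.75, 0.47, 1.45 and 11.9 FPKM, a log2 difference of 2.17. Alox5ap, which presents arachidonic acid to 5-lipoxygenase, stood at 201, 69.8, 40.2, 31.1 and 91.9 FPKM, and Tbxas1, thromboxane synthase, at 56.05, 22.4, 10.8, 11.6 and 31.8 FPKM. These last 3 had been lower at 8 h than at 0 h. Hpgds, the hematopoietic prostaglandin D synthase, was at 39.2 FPKM (12 h) and 17.2 FPKM (24 h).

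The NRF2 and antioxidant list had the highest median of the lists described, 0.46, with 5 of 27 genes higher and 1 lower, where 1.51% of all genes were higher. The list had also stood above the median gene over the shorter interval from 8 to 12 h. Its median there was 0.51, with 4 of 27 genes at least 2-fold higher, where 1.61% of all genes were. Gpx1, the glutathione peroxidase that reduces hydrogen peroxide, stood at 295, 89.3, 47.03, 29.8 and 159.8 FPKM, a log2 difference of 2.17. Gclm, the regulatory subunit of the enzyme that starts glutathione synthesis, stood at 39.6, 14.3, 14.8, 41.1 and 136 FPKM. Cat, catalase, stood at 205, 82.05, 26.02, 54.7 and 170.1 FPKM. Gpx1, Cat and Gclm had all dropped by 4 h. Of these only Gclm was above its 0 h level at 12 h and 24 h. Prdx1, a peroxiredoxin, stood at 1061, 789.7, 1089, 1729.7 and 4455 FPKM, and Hmox1, which breaks down heme, at 177, 44.2, 369, 1255 and 3228 FPKM. Both were already above 0 h at 12 h and reached their highest level at 24 h. Sqstm1, the autophagy receptor p62 and a regulator of NRF2, stood at 331, 378, 290.4, 446 and 996 FPKM, just under the threshold with 0.94. Sod2, the mitochondrial superoxide dismutase and also an NF-kappaB target, was the 1 lower gene, at 479 FPKM (12 h) and 278 FPKM (24 h). The list overlaps with iron handling, of which 4 of 19 genes were higher and 1 lower (median 0.24). From 8 to 12 h the iron list had a median of 0.51, also with 4 of 19 genes higher. Slc40a1, the iron exporter ferroportin, stood at 67.1, 1.84, 1.51, 7.52 and 32.9 FPKM, and Slc48a1, a heme transporter, at 158, 35.7, 32.8, 83.7 and 284 FPKM. Steap3, a ferrireductase, was at 2.17 FPKM (12 h) and 7.06 FPKM (24 h), and Trf, transferrin, at 54.8 FPKM (12 h) and 24.8 FPKM (24 h).

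Lipid genes moved in several directions, and the question of the series as its title gives it concerns lipid metabolism and the end of inflammation. In the lipid uptake and storage list 1 of 23 genes was higher and 3 lower (median -0.19). Lipa, the lysosomal acid lipase, stood at 906, 328, 102, 109.7 and 315 FPKM, a log2 difference of 1.29. Dgat2, which makes triglycerides, stood at 0.60, 2.94, 17.1, 24.2 and 2.21 FPKM, and Fabp3, a fatty acid-binding protein, at 14.5, 100.3, 356, 322 and 42.8 FPKM. Both had peaked at 8 or 12 h. Lpl, lipoprotein lipase, was lower at every later time, with 974, 374, 149.7, 77.2 and 22.1 FPKM. Of 25 genes of cholesterol synthesis 6 were lower and 0 higher (median -0.53). Fdps, farnesyl diphosphate synthase, stood at 45.8, 33, 38.8, 35.1 and 10.8 FPKM, and Cyp51, lanosterol demethylase, at 16.9, 21.9, 18.4, 12.6 and 4.72 FPKM. Among 17 LXR targets and efflux genes 2 were higher and 1 lower (median 0.14). Scd2, a desaturase, stood at 9.01, 0.97, 0.99, 6.26 and 20.6 FPKM. Abcg1, which exports cholesterol, was at 22.3 FPKM (12 h) and 37.5 FPKM (24 h), and Apoe, the apolipoprotein, at 7651 FPKM (12 h) and 4694 FPKM (24 h). Of 16 fatty acid synthesis genes 2 were higher, Scd2 and the desaturase gene Fads1 (1.33), and 1 lower, Fads2 (-1.14). Fatty acid oxidation had 1 higher, Hadh (1.20), and 1 lower, Acadl (-1.04), of 21 (median -0.04).

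Genes that take up dying cells were lower in 3 of 21 and higher in 2 (median -0.54). Axl, a receptor for phosphatidylserine-bound ligands, stood at 25.1, 74.8, 116, 128 and 45.8 FPKM, and its ligand gene Gas6 at 235, 63.7, 17.4, 7.15 and 19.3 FPKM. Pros1, the other ligand of this receptor family, was at 9.43 FPKM (12 h) and 3 FPKM (24 h). Lrp1, a large endocytic receptor, stood at 99.4, 63.6, 22, 38.5 and 101 FPKM. Axl and its ligand gene Gas6 thus moved in opposite directions, while Pros1 was lower as Axl was. Among chemokine and phagocyte receptors 2 of 26 were higher and 7 lower (median -0.47). Clec4n, known as dectin 2, stood at 65.2, 24.1, 15.6, 25.6 and 95.5 FPKM, while Clec7a, dectin 1, stood at 457, 142, 42.4, 25.2 and 10.1 FPKM. Cxcr4, the receptor of Cxcl12, stood at 142, 1.31, 1.60, 7.10 and 18.5 FPKM, and Trem2, a lipid-sensing receptor, at 1003, 307, 212, 125 and 58.8 FPKM. C3ar1, the receptor of complement C3a, stood at 277, 166, 132, 143 and 372 FPKM, and 1 of 17 complement genes, C3ar1 itself, was at least 2-fold higher. The complement receptor gene Itgax was at 15.02 FPKM (12 h) and 4.65 FPKM (24 h).

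Lysosomal genes lay near the median gene, with 2 of 40 higher and 1 lower (median -0.04). Sgsh, a sulfatase of heparan breakdown, stood at 20.1, 1.19, 0.38, 0.76 and 4.57 FPKM, and Atp6v0d2, a subunit of the proton pump, at 286, 70.8, 28.7, 17.8 and 6.20 FPKM. Autophagy genes were lower in 3 of 27 and higher in 0 (median 0.12). These 3 were the cargo receptor genes Optn (-1.83) and Tax1bp1 (-1.40) and the membrane protein gene Atg9a (-1.20). Of 27 proteasome genes 1 was lower, Psmb6 (-1.05), and the median was -0.29.

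Glycolysis and mitochondrial lists also held few genes past the threshold. Of 24 glycolysis genes 2 were lower and 0 higher (median -0.15, and 0.07 without centring). They were Slc2a6 and Slc16a1, an exporter of lactate, with 3.29, 10.1, 36.3, 41.4 and 7.08 FPKM. Pkm, the pyruvate kinase of macrophages, stood at 742, 379, 601, 1360.5 and 2235 FPKM, a log2 difference of 0.50, under the threshold. In the hypoxia list 1 of 22 genes was lower, Hif1a, which encodes the oxygen-regulated factor itself and stood at 17.4, 68.3, 120.0, 139 and 43.99 FPKM. Its known target Slc2a1, a glucose transporter, was at 156 FPKM (12 h) and 124 FPKM (24 h). None of 23 TCA cycle genes and 21 mitochondrial ribosomal genes passed the threshold (0 each), and 1 of 28 respiratory chain genes did, Cycs (-1.24), with a list median of -0.25. Idh1, isocitrate dehydrogenase of the cytosol, had the highest value of the TCA list at 13.3 FPKM (12 h) and 31.3 FPKM (24 h).

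Ribosomal protein transcripts formed the most uniform list. All 30 lay below the median gene, between -1.16 and -0.46, with a median of -0.81, and 4 were at least 2-fold lower. They are abundant, and the 980 most abundant genes had a median of -0.45. The list had also stood below the median gene from 8 to 12 h (median -0.33, with 0 of 30 past the threshold). Rpl3 stood at 641, 243, 171, 136 and 70.2 FPKM and Rplp0 at 929, 431, 364, 328 and 278 FPKM. Eef1a1, the elongation factor that carries aminoacyl-tRNA, stood at 4387, 2655, 2123, 1902 and 409 FPKM, a log2 difference of -2.43 and the lowest of 24 translation factors (median -0.23). Reads of these genes can be divided with processed copies elsewhere in the genome. Actb, beta-actin, which serves as a reference in many assays, was also lower, at 2566, 4974, 6187, 3570.2 and 1637 FPKM.

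Serine synthesis and stress genes differed within their lists. In the integrated stress response list 1 of 21 genes was higher and 3 were lower (median -0.22). Psat1, which makes serine with Phgdh, stood at 3.81, 19.4, 39.04, 24.9 and 1.78 FPKM, and Phgdh at 1.04, 1.67, 2.92, 7.11 and 1.75 FPKM. Atf4, the factor that drives this response, stood at 72.4, 69.4, 107, 147 and 257 FPKM, and Atf5 at 48.7, 20.7, 16.7, 17.1 and 49.1 FPKM. Psat1 and Phgdh were thus at least 2-fold lower while Atf5 was higher and Atf4 lay under the threshold with 0.58. Of 19 cytosolic heat shock genes 5 were lower (median -0.44), among them Hspa8, the constitutive chaperone, at 1862 FPKM (12 h) and 927 FPKM (24 h), while 0 of 24 chaperones of the endoplasmic reticulum passed the threshold (median 0.08). Reads of Hspa1a and Hspa1b cannot be told apart with certainty, and both were lower (-1.16 and -1.15). Cell death genes were lower in 6 of 32 and higher in 0 (median -0.36), led by the Bcl2a1 survival genes, whose near-identical copies share reads, with Bcl2a1d at 115 FPKM (12 h) and 22.9 FPKM (24 h).

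Among 25 macrophage transcription factors 5 were lower and 0 higher (median -0.10). Cebpd, an early partner of NF-kappaB, stood at 5.89, 43.1, 28.8, 17.9 and 4.49 FPKM. Batf2 was at 84.2 FPKM (12 h) and 25.9 FPKM (24 h), and Stat3, which carries the signal of interleukins 6 and 10, at 153 FPKM (12 h) and 67.04 FPKM (24 h). Cebpa, a factor of the myeloid lineage, stood at 93.99, 2.04, 2.30, 8.22 and 19.1 FPKM, a log2 difference of 0.90, and remained below its 0 h level. Immediate early genes were lower in 4 of 17 (median -0.59), with Egr1 at 3.32 FPKM (12 h) and 0.93 FPKM (24 h), while Fos was at 8.61 FPKM (12 h) and 15.99 FPKM (24 h) and Jun at 31.1 FPKM (12 h) and 46.4 FPKM (24 h).

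Setd2, the enzyme that trimethylates lysine 36 of histone H3 and the gene named in the title of the series, stood at 7.40, 8.40, 6.57, 8.13 and 12.4 FPKM (chromosome 9, 110532500 to 110618633, GRCm38). Its log2 difference was 0.34, under the threshold, with counting intervals of 7.69 to 8.59 FPKM (12 h) and 11.9 to 13 FPKM (24 h). Of 22 measured genes of H3K36 methylation 0 passed the threshold in either direction, and the median was 0.01. The highest of them was Whsc1, a dimethyltransferase, at 3.70 FPKM (12 h) and 7.43 FPKM (24 h), and the lowest Smyd2 at 3.72 FPKM (12 h) and 2.86 FPKM (24 h).

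Markers of cell types were compared because in bulk RNA fewer cells of a type and less RNA per cell cannot be told apart. All 9 macrophage markers were measured, with a summed level of 3217 FPKM at 12 h and 3299 at 24 h, as deposited and without centring. Their median log2 difference was -0.44, and 5 of the 9 lay below the median gene, with 2 at least 2-fold lower and 0 higher. Adgre1, which encodes F4/80, stood at 340.5, 429, 461, 602 and 967 FPKM, and Cd14 and Lyz2 were lower (-1.56 and -1.16). Of 10 dendritic cell markers 9 were listed and 2 passed the filter, Ccr7 at 11.5 FPKM (12 h) and 9.13 FPKM (24 h) and Fscn1 at 18.2 FPKM (12 h) and 8.57 FPKM (24 h), both of which activated macrophages can express. The lineage-defining Zbtb46 was at 0.25 FPKM (12 h) and 0.11 FPKM (24 h), Flt3 at 0.53 FPKM (12 h) and 0.23 FPKM (24 h) and Clec9a at 0.15 FPKM (12 h) and 0.07 FPKM (24 h). The summed level of the 9 listed dendritic cell markers was 32.8 FPKM at 12 h and 19.6 at 24 h, most of it Ccr7 and Fscn1. Of 10 neutrophil markers 8 were listed, all 8 passed the filter, 4 were at least 2-fold lower and 0 higher, with sums of 182 FPKM at 12 h and 60.8 at 24 h. S100a9 stood at 167, 159, 89.2, 44.3 and 7.14 FPKM, Ngp, a granule protein, at 35.1, 38.98, 11.96, 4.10 and 0.28 FPKM, and Mpo, myeloperoxidase, was at 0.23 FPKM (12 h) and 0 FPKM (24 h). Ly6g moved the other way with 0.12, 0.19, 0.53, 1.14 and 3.71 FPKM (log2 difference 0.92), and Cxcr2 was at 2.27 FPKM (12 h) and 1.99 FPKM (24 h). Over this interval the lower summed level of neutrophil markers moved with the lower inflammatory genes. Over all 5 libraries the neutrophil sum was 342, 324, 255, 182 and 60.8 FPKM. That of the inflammatory cytokines was 199, 8018, 3498, 2568 and 1104 FPKM, rising after 0 h. The part of the neutrophil markers in the results for inflammatory genes was not tested. None of the lymphoid or erythroid markers listed (7 of 10 and 2 of 7) passed the filter (0 each), with sums of 1.81 and 0.78 FPKM at 12 h and 1.13 and 0.82 at 24 h. Mast cell markers other than Hdc were at most 2.3 FPKM in both libraries, and Fcer1a was at 0.21 FPKM (12 h) and 0 FPKM (24 h). Of 9 stromal and endothelial markers 5 passed the filter, 2 were lower, Pdgfrb (from 3.40 to 0.41 FPKM) and Pecam1 (from 5.19 to 2.35 FPKM), and the sums were 16.4 and 7.8 FPKM.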

How the data were processed

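RNA sequencing libraries of macrophages after 0, 4, 8, 12 and 24 h of LPS were measured, with 1 library per time. The authors deposited FPKM values in 1 table whose columns name the libraries, per the file headers. The submitters' processing notes list Bowtie2, RSEM and GRCm38. Versions, annotation and filters were not given in the sources used here. An FPKM is relative to its library and transcript length, so it is lower where other genes take more of the reads, and an estimate divides reads among similar copies. Symbols that had become dates (20 genes) were looked up by identifier in RefSeq (GRCm38.p6), which held 13319 of the 13339 identifiers. Coordinates are those of RefSeq.

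The 12 h value was subtracted from the 24 h value on the log2(FPKM + 1) scale, which understates the change of low genes. Genes averaging 1 FPKM or more entered, and differences were centred on their median. No test or p-value was computed, since 1 library a side gives no spread. The gene set, the 57 gene lists and the rules were chosen with earlier results of these data known. Genes were named by this rule: the 15 largest differences each way among genes of at least 10 FPKM in the 12 h or 24 h library, the 8 largest each way among those of at least 300 FPKM, up to 5 members of a described list in the direction of its median and up to 3 in the opposite direction (all members where at most 8 were measured), and Setd2. Tnf, Il1b, the families given as other observations and the low dendritic and mast cell markers were named outside it, after their values were seen. Some genes that meet the rule are not reported here. Depth was estimated from whole-read steps of low values of genes of 400 to 2500 nt, searched between 10 and 30 M reads (M, megareads). The share of whole values was 56.6% to 68.9% among 115 to 132 per library, and 28.6% to 29.9% would be whole by chance for a fixed step. Reads of most genes could not be recovered, and count tests were left out. Counting intervals (95%, Poisson) use this depth and a transcript length, and cover counting error only. The steps were tested on simulated data. Python 3.11.15, pandas 2.3.3, numpy 2.4.6, scipy 1.17.1 and matplotlib 3.10.9 were used. Alternatives were another scaling, pseudocount, filter or baseline, removal of the trend with transcript length and, chosen after seeing the data, leaving out the 10% most abundant genes.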

Additional observations from a re-analysis of the deposited data

How the results depend on the processing

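The counts depended on scaling, pseudocount and baseline. Without centring 335 genes were higher and 343 lower, with 250 of the former lower and 235 of the latter higher at 8 h than at 0 h. With equal 75th percentiles 260 were higher, 194 of them lower at 8 h than at 0 h. A pseudocount of 0.1 gave 302 higher genes (221 lower at 8 h than at 0 h). A pseudocount of 5 gave 65 higher (43) and 275 lower (204 higher at 8 h than at 0 h). The mean of 8 h and 12 h as baseline gave 281 higher (181). The cause of these shifts was not tested. These counts stayed within 1.5 times with no filter (210 higher and 460 lower, 31.3% higher), a mean of at least 5 FPKM (121 and 409), the length trend removed (153 and 538) and without the most abundant 10% of genes (124 and 429). Of the named genes, 41 lost the call without centring and 54 with a pseudocount of 5. No paired analysis was possible because each time has 1 library. Depth of about 19 M reads leaves low genes imprecise, but fewer than 20 estimated reads in both libraries were found for 0 of the 148 higher and 2 of the 555 lower genes.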

Other observations

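Values of 5 gene families are given here, some members of which also belong to the lists above, among them Gpx1, Prdx1, S100a8, S100a9, Ly6g, Actb and Fscn1. The families were chosen after their values had been seen, so they describe these 2 libraries only. Of 9 measured core and linker histone genes 5 were higher and 0 lower by the 2-fold rule, with a median log2 difference of 1.05. Hist1h1c, a linker histone, stood at 48.5, 19.1, 3.32, 6.23 and 28.7 FPKM, and Hist1h2bc at 60.7, 15.8, 10.8, 17.4 and 54.02 FPKM. Histone genes are near-identical, and reads may be divided among copies. Of 8 Ly6 surface antigens 3 were higher and 1 lower (median 0.63). Ly6i stood at 0.20, 1.64, 9.73, 35.96 and 87.99 FPKM and Ly6e at 139, 167, 395, 621 and 922 FPKM, both highest at 24 h, while Ly6d was at 2.90 FPKM (12 h) and 0.24 FPKM (24 h).

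The S100a calcium-binding proteins were lower in 5 of 8 genes and higher in 0 (median -1.47), and the list includes the neutrophil markers S100a8 and S100a9. S100a4, which is also expressed in macrophages, stood at 349, 117, 71.2, 56.5 and 11.1 FPKM, and S100a1 at 359, 110.0, 106, 81.8 and 31.8 FPKM. Of 41 genes of actin and of proteins that bundle or bind it 12 were lower and 2 higher (median -0.52). Lcp1, the plastin of leukocytes, stood at 396, 1028, 1144, 1019 and 385 FPKM, and Cnn2, a calponin, at 34.2, 37.2, 90.1, 78 and 17.01 FPKM. Gsn, the actin-severing protein gelsolin, stood at 151, 63.2, 31.8, 23.3 and 88.2 FPKM and was 1 of the 2 higher genes, with Tpm1 (1.05). Among 9 peroxiredoxins and glutathione peroxidases 3 were higher and 2 lower (median 0.28). Prdx6 stood at 30.4, 15.1, 16.2, 36.1 and 129.8 FPKM, whereas Prdx5 was at 2885 FPKM (12 h) and 1588 FPKM (24 h) and Gpx3, the secreted form, at 30.1 FPKM (12 h) and 9.44 FPKM (24 h).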
